A study of Mus musculus with 4 samples.

Results

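The genes described here are those that differed in the same direction between the harvest days in unstimulated and in electrically stimulated cultures of mouse dorsal root ganglia. Both libraries of 19 days in vitro (DIV) were set against both libraries of 11 DIV, with treatment as a block, 2 against 2. Of the 23282 gene rows, 1357 had a mean of 1000 or more reads over the 4 libraries. Of these, 779 genes lay on the same side of 0 in control and in electrical stimulation (ES), and they are the members here. In 380 of them the 19 DIV value was the higher in both treatments, and in 399 it was the lower. The other 578 genes lay on opposite sides.

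The ganglia came from C57BL/6 embryos of embryonic day 13 and were grown as explants on Matrigel, in growth medium until 8 DIV and in a myelination medium after that. The ES cultures had received a field of 50 mV/mm at 20 Hz for 1 h at 10 DIV, and the control cultures no stimulation. RNA was taken from both at 11 DIV and at 19 DIV, so that each of the 4 groups was 1 library, made from 500 ng of RNA pooled from 3 explants. All 4 groups shared the strain, the embryonic day and the change of medium, and the explants held neurons, glia and connective tissue cells together.

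Dorsal root ganglia hold the cell bodies of sensory neurons, satellite glia around them and Schwann cells along their axons. Schwann cells that myelinate wrap an axon in layers of their own membrane, for which they make myelin proteins such as PMP22 and periaxin, need much cholesterol, and lay down a basal lamina of laminin, collagen IV and perlecan on their outer side. Fibroblasts in such cultures make the fibrillar collagens. Metallothioneins, peroxiredoxins and heme oxygenase are induced in many cell types by metals and by oxidants.

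Total reads ranged from 5782834 to 7830950 per library, and 9632 to 9996 rows had a read. Levels below are in CPM, counts scaled to a common library size with TMM. On that scale 3 reads, the upper limit for a gene with no read, were worth 0.376 to 0.518 CPM, for counting error only. The ribosomal RNA row Rn45s held 5.18% of reads in the control library of 11 DIV and 2.65 to 3.08% in the others. Myelin, immature Schwann and neuronal marker lists had genes with reads in all 4 libraries: 16 of 27 myelin genes, 17 of 22 immature Schwann and satellite glia genes and 21 of 25 pan-neuronal genes. None of the 6 lists for other cell types (macrophages, endothelium and pericytes, perineurium and meninges, red blood cells, muscle and cartilage, central glia) had a member with a mean of 1000 reads. Their summed levels, given as control and ES at 11 DIV and then control and ES at 19 DIV, were 191, 77.1, 86.2 and 114 CPM for 16 macrophage genes, with Aif1, Cx3cr1 and Trem2 at 0 in every library. The 14 perineurial and meningeal genes summed to 298 and 213 CPM at 11 DIV and to 515 and 733 CPM at 19 DIV, with Cldn1 at 0. The part of these cells in the results below was not tested. In bulk RNA, fewer cells of a type and less RNA per cell cannot be told apart.

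Same-direction genes made up 57.4% of the 1357 genes, against 48.7% of all 10050 genes that passed the filter on low counts. Higher in both treatments were 28.0% (all genes: 23.9%), and lower in both were 29.4% (all genes: 24.8%). The direction itself chose the members, so these shares are a description. The difference was mostly small: in 68.5% of the 779 members the smaller of the control and ES differences was under 0.5 on the log2 scale. At least 2-fold in both treatments were 32 genes higher (2.36% of 1357; all genes 9.7%) and 23 genes lower (1.69%; all genes 9.89%). Another 30 genes differed at least 2-fold in each treatment but in opposite directions (2.21%; all genes 18.6%). Both 19 DIV libraries stood above both 11 DIV libraries in 268 genes (19.7%; all genes 17.3%), and below them in 300 genes (22.1%; all genes 17.9%). Just inside the minimum of 1000 reads was Nab2 with a mean of 1000 reads, and just outside were Fst with 999.5 and Lig1 with 999.2. The minimum is on the mean, so a gene could pass it through the day or the library where it was high. Cdh1, Rcn3, Adh7 and Hmox1, named below, are such genes. Cdh1 had 92 and 303 reads at 11 DIV and 2532 and 1710 at 19 DIV.

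No gene passed the test of the day difference. With edgeR's quasi-likelihood test over 10050 genes and 1 residual degree of freedom, 0 genes (0.0%) had an adjusted p under 0.05, and the smallest adjusted p was 0.755. In that test an unadjusted p under 0.05 was found for 84 of the 1357 genes (6.19%), 49 higher and 35 lower, and for 204 of all genes (2.03%). All 84 were among the same-direction members (10.8% of 779). The fitted day difference lies near the mean of the control and ES differences, and the residual is their gap. Genes with opposite directions are therefore nearly barred from a low p, so this split is no separate result. limma with voom also called 0 genes, and DESeq2 called 881 (8.77%), of which 145 were among the 1357. A fit of the 1357 genes alone called 10, among them Cdh1, Prx and Dazap1 as higher and Adh7, Hmox1, Prdx1, Prdx6, Esd and Mt2 as lower. That fit called 0 once the scaling too was taken over those genes, with a smallest adjusted p of 0.257, an alternative chosen after seeing the data. The median biological coefficient of variation of the 1357 genes was 49%, read from edgeR's dispersion trend and estimated without replicates. Every gene named below had an adjusted p of 1.0 in the edgeR test, so the values describe these 4 libraries; the SE given with a fitted difference is that of this fit.

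**Figure D1:**
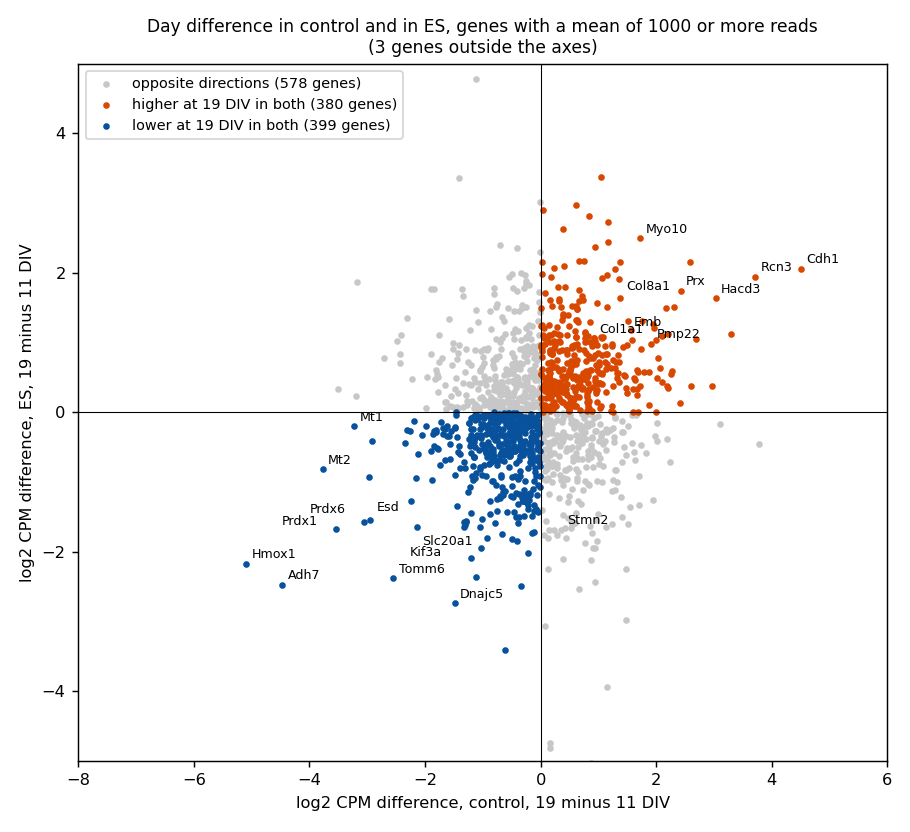
Each point is 1 of the 1357 genes with a mean of 1000 or more reads; the x axis is its log2 CPM difference, 19 minus 11 DIV, in control and the y axis the same in ES. The 380 genes in orange were higher and the 399 in blue lower in both treatments, and the 578 in grey differed in opposite directions; 3 genes lie outside the axes.

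The likeness of the control and ES differences was greater in abundant genes. Control and ES share no library, so the values are separate measurements. Of 793 genes with a mean of 1000 to 2000 reads, 53.5% had the same direction, of 423 genes between 2000 and 5000 reads 61.0%, and of 141 genes with 5000 or more reads 68.8%. Across genes, which are not independent replicates, Pearson's r between the control and ES differences was 0.04 in the first of these bins, 0.25 in the next and 0.44 in the last. The median gap between a gene's control and ES difference was 0.89, 0.63 and 0.60 log2 units in the same bins, and 1.22 between 500 and 1000 reads, where 47.8% of 1606 genes had the same direction.

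**Figure D2:**
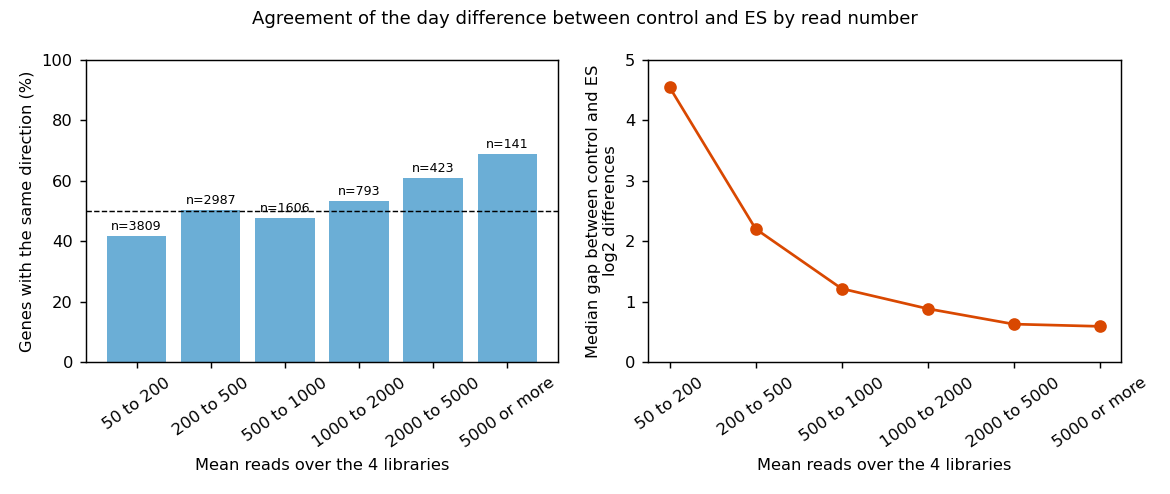
Bars give the percent of genes with the same direction of day difference in control and ES, by mean reads over the 4 libraries, with the number of genes printed at each bar and a dashed line at 50%; points give the median gap between a gene's control and ES log2 difference. The share stood at 41.8% between 50 and 200 reads and at 68.8% from 5000 reads up, and the gap at 4.54 and 0.60.

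Myelin genes were among the genes furthest higher in both treatments. Prx (chromosome 7, 27499324 to 27520214, plus strand), which codes for periaxin, a scaffold of the Schwann cell membrane, was at 88.0 and 218 CPM at 11 DIV and at 474 and 731 CPM at 19 DIV. The day groups did not overlap, and the fitted difference was 2.09 ± 0.447 (SE). Cdh1, the adhesion molecule E-cadherin, which also sits in the adherens junctions of myelinating Schwann cells, was at 15.9 and 51.1 CPM and then at 367 and 214 CPM. The log2 difference was 4.51 in control and 2.06 in ES, the widest gap between treatments among the 12 genes furthest higher. Mag, a myelin-associated adhesion molecule facing the axon, was at 43.2 and 160 CPM at 11 DIV and at 216 and 456 CPM at 19 DIV.

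Another 8 of the 12 genes furthest higher in both treatments had differences of at least 1.32 log2 units in each treatment. Rcn3, a calcium-binding protein of the endoplasmic reticulum, and Hacd3, an enzyme of very long chain fatty acid elongation, had the widest gaps of these 8, with log2 differences of 3.72 and 3.03 in control and 1.94 and 1.64 in ES. Myo10, an unconventional myosin of filopodia, was at 68.4 and 77.3 CPM at 11 DIV and at 227 and 437 CPM at 19 DIV. Emb, a partner of monocarboxylate transporters, had differences of 2.168 in control and 1.498 in ES. Col8a1, a short-chain collagen, had 1.36 and 1.91. Acin1 and Dazap1, both RNA-binding proteins, and Fryl were the rest of the 8, and in every one of these both 19 DIV libraries lay above both 11 DIV libraries.

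**Figure D3:**
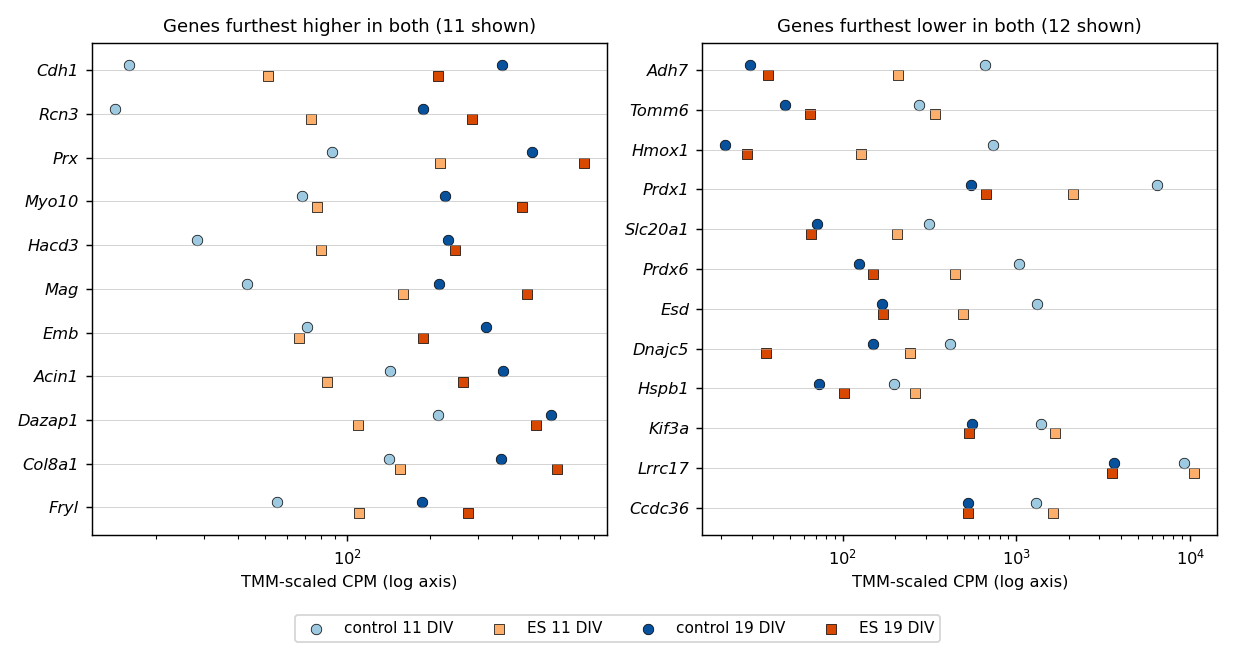
TMM-scaled CPM on a log axis in each of the 4 libraries for 11 of the genes furthest higher (left) and the 12 furthest lower (right) in both treatments, ranked by the smaller of the control and ES differences. In all 23 genes the dark 19 DIV symbols lie wholly to one side of the light 11 DIV symbols, which the ranking favours.

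Among 15 myelin structural genes with a mean of 1000 or more reads, 10 were higher in both treatments and 1 (Emp3) lower, with 4 in opposite directions. The shares, 66.7% and 6.67%, stand beside 28.0% and 29.4% of all 1357 genes. The list's median log2 difference was 1.83 in control and 0.54 in ES, and 0.82 in the fit over all 4 libraries, against -0.06, 0.03 and -0.03 for the 1357 genes. The control median was the larger. In the edgeR test 6 of the 15 genes had an unadjusted p under 0.05, beside 6.19% of all 1357 genes. In the oxidative stress list below it was 5 of 19. Genes with opposite directions are nearly barred from such a p, so these counts follow in part from the shared direction. Neuronal marker genes moved with the ES part of this comparison: the 25 pan-neuronal markers summed to 6104 and 9715 CPM at 11 DIV and to 8214 and 3740 CPM at 19 DIV, and whether they bear on the myelin genes was not tested.

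Pmp22, a membrane protein of compact myelin (chromosome 11, 63128982 to 63159547, plus strand), was at 318 CPM in control and 494 CPM in ES at 11 DIV and at 1201 and 979 CPM at 19 DIV. The control library of 11 DIV was the lowest, and the day groups did not overlap, with a fitted difference of 1.45 ± 0.437 (SE). Pmp2, a fatty acid binding protein of peripheral myelin, and Gldn, which codes for gliomedin of the node of Ranvier, had log2 differences of 1.96 and 2.21 in control and of 1.21 and 1.12 in ES. Mbp, the basic protein on the inner face of compact myelin, was no member: it was at 832 and 1154 CPM at 11 DIV and at 1532 and 1033 CPM at 19 DIV, higher in control and lower in ES.

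Of the 4 Schwann cell transcription factor genes with enough reads, 3 lay above 0 in both treatments, but for 2 of them 1 of the differences was close to 0. Nab2, a co-regulator of Egr factors, had a log2 difference of 2.001 in control and 0.002 in ES, and Sox10 had 0.012 in control and 0.21 in ES. Pou3f1, which codes for Oct6, a factor of promyelinating Schwann cells, was at 439 and 436 CPM at 11 DIV and at 1703 and 1048 CPM at 19 DIV. The 11 DIV libraries were nearly equal, and the fitted difference was 1.61 ± 0.421 (SE). Sox10, which marks Schwann cells and satellite glia at all stages, differed little: it was at 721 and 626 CPM and then at 727 and 723 CPM. The fitted difference of Sox10 was 0.11 ± 0.386 (SE), and that of Ngfr, the low-affinity neurotrophin receptor of immature Schwann cells, was 0.13 ± 0.389 (SE). The 11 immature Schwann and satellite glia genes had 7 members (63.6%) higher and 2 (18.2%) lower in both treatments, beside 28.0% and 29.4% of all 1357 genes. The medians were 0.57 in control and 0.09 in ES. Vim, an intermediate filament of these cells, was at 2827 and 4250 CPM at 11 DIV and at 4961 and 4935 CPM at 19 DIV.

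The cholesterol list had 6 genes with enough reads, of which 4 (66.7%) were higher in both treatments and 2 differed in opposite directions. Of all 1357 genes, 28.0% were higher and 29.4% lower in both. Among the 4 were Hmgcs1, Cyp51 and Msmo1, enzymes of the pathway, with fitted differences of 0.46 ± 0.417 (SE) for Hmgcs1 and 0.64 ± 0.515 (SE) for Cyp51. The log2 difference of Hmgcs1 was 0.84 in control and only 0.07 in ES. Without the control library of 11 DIV and without the treatment block its fitted difference was -0.09, a value that mixes treatment with day. Among 10 genes of fatty acid and myelin lipid synthesis, 3 were higher and 1 lower in both, and 6 differed in opposite directions.

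Most collagen and basal lamina genes were higher at 19 DIV in both treatments. Of 14 collagens and interstitial matrix genes, 11 (78.6%) were higher in both treatments and 0 lower, beside 28.0% and 29.4% of all 1357 genes. The medians were 0.37 in control and 0.92 in ES. Among the 11, Col5a2 (0.016), Col3a1 (0.158) and Col16a1 (0.166) were close to 0 in control, and Col5a1 (0.081) in ES. Postn, also among the 11, is counted in the immature Schwann and satellite glia list too. Col1a1 and Col1a2 code for type I collagen and were at 1310 and 2095 CPM in control and at 1785 and 3144 CPM in ES at 11 DIV. At 19 DIV they were at 2493 and 4909 CPM in control and at 3725 and 6074 CPM in ES, and the ES library of 19 DIV was the highest for both. Fitted differences were 0.995 ± 0.437 (SE) for Col1a1 and 1.09 ± 0.496 (SE) for Col1a2. Fbln2, a matrix glycoprotein, was at 32.6 and 106 CPM and then at 211 and 222 CPM. The summed perineurial level, given above, was also higher in both 19 DIV libraries, and its part was not tested.

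Of 13 basal lamina genes, 10 (76.9%) were higher and 1 (Col4a2) lower in both treatments, beside 28.0% and 29.4% of all 1357 genes. The medians were 0.77 in control and 0.59 in ES. Col4a2, of collagen IV, differed by -0.19 in control and -0.07 in ES, and Col4a1 by 1.04 and 0.07. Lama2 and Dag1 were also close to 0 in ES (0.139 and 0.125). Dag1 is also counted among the higher myelin structural genes, so these lists are not fully separate. Hspg2, the heparan sulfate proteoglycan perlecan, had the same difference in both treatments: it was at 553 and 777 CPM at 11 DIV and at 1168 and 1640 CPM at 19 DIV, a log2 difference of 1.08 in control and 1.08 in ES (fit 1.08 ± 0.394 SE). Lamc1, the laminin gamma chain common to most laminins, was at 277 and 582 CPM at 11 DIV and at 504 and 996 CPM at 19 DIV. It was higher within each treatment, by 0.86 and 0.78 log2 units, while its day groups overlapped. Sparc, a collagen-binding protein and one of the most abundant members, was at 5582 and 6932 CPM and then at 8544 and 7391 CPM, and the ES difference was only 0.09.

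**Figure D4:**
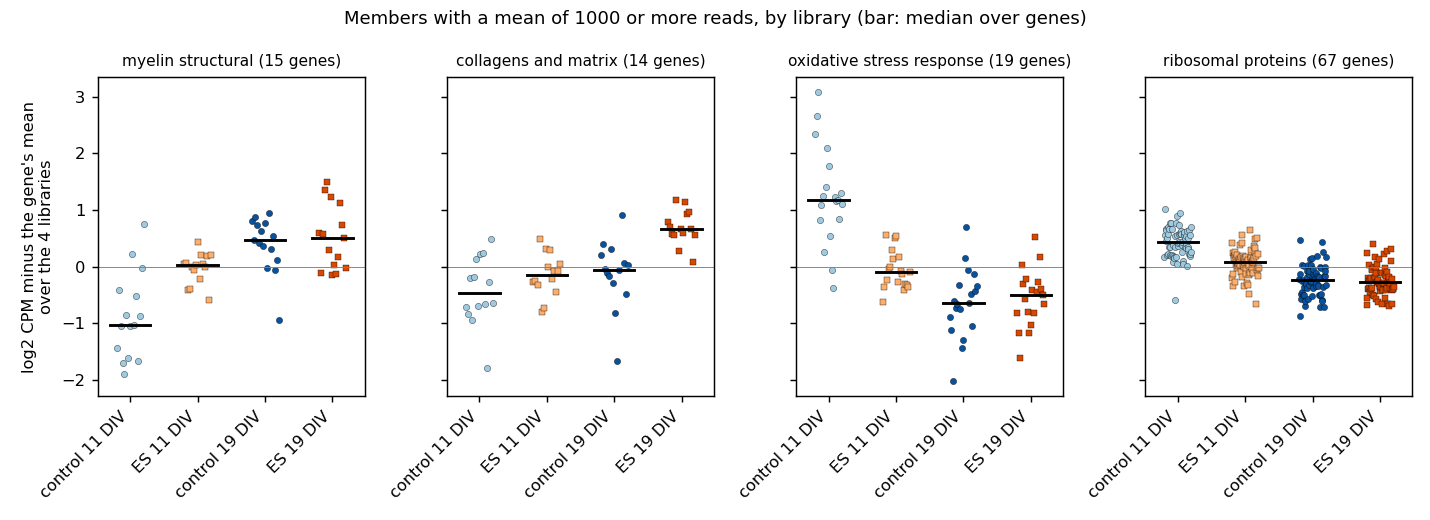
Each symbol is 1 gene in 1 library: its log2 CPM minus its mean over the 4 libraries, for the members of 4 lists with a mean of 1000 or more reads, and the bar is the median over genes. Myelin and collagen genes sit lowest, and oxidative stress and ribosomal protein genes highest, in the control library of 11 DIV.

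Most metallothionein and oxidative stress genes were lower at 19 DIV in both treatments, and Hmox1, Prdx1 and Prdx6 of this list were among the 12 genes furthest lower. Of 19 metallothionein, ferritin and oxidative stress genes, 14 (73.7%) were lower in both treatments and 1 (Gpx1) higher, against 29.4% and 28.0% of all 1357 genes. The median log2 difference was -1.81 in control and -0.31 in ES. The 28 genes of the list summed to 42050 CPM in the control library of 11 DIV, to 12560 CPM in ES at 11 DIV and to 8423 and 9476 CPM at 19 DIV, so the control library of 11 DIV stood far above the other 3. The ES libraries alone give the median of -0.31.

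Prdx1, a peroxiredoxin that reduces hydrogen peroxide (chromosome 4, 116685544 to 116700822, plus strand), was at 6401 and 2128 CPM at 11 DIV and at 551 and 667 CPM at 19 DIV. Both 19 DIV libraries were under both 11 DIV libraries, and the fitted difference was -2.61 ± 0.619 (SE). Hmox1, which codes for the heme-degrading oxygenase, was at 735 and 127 CPM and then at 21.2 and 28.1 CPM. Its log2 difference was -5.10 in control and -2.17 in ES. Prdx6, another peroxiredoxin, was at 1038 and 444 CPM at 11 DIV and at 124 and 149 CPM at 19 DIV. Adh7, an alcohol and retinol dehydrogenase outside the list, was at 657 and 207 CPM and then at 29.3 and 37.1 CPM, with a fitted difference of -3.48 ± 0.689 (SE). Esd, an esterase of formaldehyde detoxification and also outside the list, had log2 differences of -2.96 in control and -1.54 in ES. The metallothioneins, small metal-binding proteins, differed mainly in control: Mt1 was at 8456 and 1087 CPM at 11 DIV and at 900 and 945 CPM at 19 DIV, and Mt2 at 9343 and 1161 CPM and then at 684 and 657 CPM. The ES difference was -0.20 for Mt1 and -0.82 for Mt2.

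Stretches of the promoters of 4 of these genes are shown because the list's members lay together on the low side. They come from the RefSeq table (GRCm38.p6), 5′ to 3′ on the gene's strand, and the capitals mark a match to the antioxidant response element (ARE, TGACNNNGC) or the metal response element (MRE, TGCACNC or TGCGCNC) on either strand.
Mt2 (chromosome 8, 94172519 to 94172567): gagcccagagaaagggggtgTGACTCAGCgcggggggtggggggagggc
Mt1 (chromosome 8, 94179046 to 94179088): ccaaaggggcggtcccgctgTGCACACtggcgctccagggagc
Prdx1 (chromosome 4, 116685446 to 116685494): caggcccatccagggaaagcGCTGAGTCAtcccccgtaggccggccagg
Txnrd1 (chromosome 10, 82859094 to 82859142): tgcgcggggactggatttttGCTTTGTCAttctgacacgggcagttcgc
In the 250 bases before the start, the ARE letters were found in 4 of the 21 promoters that the table holds for 17 of the list's 19 genes (those of Mt2, Prdx1, Sod1 and Txnrd1), and in 10.2% of all 32851 promoters. The letters TGCACNC were found in 3 of the 21 (Mt1, Mt2 and Pgd; 10.4% of all promoters), and TGCGCNC in 2 (Mt2 and Srxn1; 12.5%). A match is a description of letters, and factor binding was not measured.

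The other genes of the 12 furthest lower were of several kinds. Tomm6, a subunit of the import pore of the mitochondrial outer membrane, was at 275 and 338 CPM at 11 DIV and at 46.9 and 64.7 CPM at 19 DIV, with like differences in control (-2.55) and ES (-2.38). Slc20a1, a phosphate transporter, had -2.14 and -1.65. Dnajc5, the cysteine string protein of synaptic vesicles, had -1.49 and -2.74. Hspb1, a small heat shock protein, was at 198 and 260 CPM and then at 72.8 and 102 CPM.

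Kif3a, Lrrc17 and Ccdc36, the remaining 3, share a sequence. Their counts, with those of Akap5 and Timm22, kept nearly 1 ratio over the 4 libraries: the lowest ratio to Lrrc17 was 97.0, 95.1, 92.5 and 89.4% of the highest for Akap5, Kif3a, Ccdc36 and Timm22, and these 5 rows were singled out after their values were seen. Lrrc17 had 53058 and 62323 reads at 11 DIV and 25267 and 28289 at 19 DIV, and Kif3a had 8062 and 9898 and then 3818 and 4271. The 3′ UTRs of the 5 genes (GENCODE M21, GRCm38) hold a common segment of 90 to 110 aligned bases at 89.6 to 98.9% identity, which also aligns to Bc1, a gene of a neuronal noncoding RNA. The stretch below is identical in all 5 and is shown as part of that segment; in Akap5 it lies on the opposite strand.
Lrrc17 (chromosome 5, 21575494 to 21575520): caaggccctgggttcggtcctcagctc
In Kif3a it lies on chromosome 11, 53601912 to 53601938, and in Ccdc36 on chromosome 9, 108403645 to 108403671. The stretch is not particular to these 5: it occurs in 15 of 55341 GENCODE genes on either strand, 13 of them in the count table and 6 with a mean of 1000 or more reads. The sixth, Mrpl33, a mitochondrial ribosomal protein gene, had 417 and 1017 reads at 11 DIV and 845 and 1904 at 19 DIV, with log2 differences of 0.77 in control and 0.47 in ES, and so did not track the other 5. Cnot3 and Xrn1, with means of 179 and 116 reads, were higher at 19 DIV in control (0.84 and 1.36 log2 units), while in ES their reads went from 252 to 7 and from 130 to 0. Values of the 5 genes are uncertain, and whether the same reads were counted for them was not tested. Without the 35 rows whose counts tracked another row, 759 of 1322 genes had the same direction (57.4%), and 18 in place of 23 were at least 2-fold lower in both.

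Ribosomal protein genes were lower in both treatments as a list, by small amounts. Of 67 genes, 54 (80.6%) were lower and 1 (Rpl38) higher in both, against 29.4% and 28.0% of all 1357 genes. In 46 both 19 DIV libraries lay under both 11 DIV libraries, against 22.1% of all 1357 genes. The median was -0.73 in control and -0.34 in ES. Rps20, of the small subunit, was at 2507 and 1804 CPM at 11 DIV and at 1085 and 1439 CPM at 19 DIV. Rpl5, of the large subunit, was at 648 and 427 CPM and then at 176 and 218 CPM, the lowest fitted value of the list at -1.42 ± 0.460 (SE). Rps9 differed by -0.60 in control and by -0.05 in ES. Ribosomal protein genes have many processed copies in the genome, so reads may be split among them.

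Translation factors had the same sign, with 12 of 19 genes (63.2%) lower and 0 higher in both treatments. The shares of all 1357 genes were 29.4% and 28.0%. The medians were -0.56 in control and -0.26 in ES. Tpt1, an abundant growth-linked protein of this list, was at 4135 and 2675 CPM at 11 DIV and at 1928 and 2137 CPM at 19 DIV. Eef2, the factor that moves the ribosome along, differed by only -0.09 in control and -0.34 in ES. Eif5, an initiation factor, had -0.76 and -1.04.

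Glycolysis genes were lower in both treatments in 9 of 11 cases (81.8%) and higher in 0, beside 29.4% and 28.0% of all 1357 genes. The medians were -0.37 in control and -0.69 in ES. Among the 9, Ldha (-0.055), Hk1 (-0.156) and Tpi1 (-0.16) were close to 0 in control. Aldoa, the muscle-type aldolase, was at 1567 and 1017 CPM at 11 DIV and at 774 and 350 CPM at 19 DIV. Its fitted difference was -1.28 ± 0.407 (SE). Pkm, pyruvate kinase, was at 1393 and 651 CPM and then at 555 and 395 CPM, and Pgk1, phosphoglycerate kinase, at 291 and 310 CPM and then at 160 and 113 CPM. In each of these 3 genes the day groups did not overlap. Both 19 DIV libraries lay under both 11 DIV libraries in 8 of the 11 genes, against 22.1% of all 1357. Eno2, the neuronal enolase, and Ndrg1 differed in opposite directions between the treatments.

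The 43 oxidative phosphorylation genes were balanced, with 12 higher, 12 lower and 19 in opposite directions. The shares higher and lower, 27.9% each, were near those of all 1357 genes (28.0% and 29.4%). Ndufs6 and Ndufa7, subunits of complex I, were lower in both treatments, by 1.11 and 1.04 log2 units in control and by 2.37 and 1.95 in ES. Proteasome subunits had 7 of 14 genes (50.0%) lower and 0 higher in both, beside the same 29.4% and 28.0% of all 1357 genes. Psmd13, a subunit of the regulatory particle, was at 428 and 188 CPM at 11 DIV and at 238 and 120 CPM at 19 DIV, so that it was lower within each treatment while the day groups overlapped.

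Of 18 genes of protein folding in the endoplasmic reticulum, 10 were higher and 5 lower in both treatments. Calr, the chaperone calreticulin, was at 371 and 525 CPM at 11 DIV and at 809 and 934 CPM at 19 DIV, with a fitted difference of 0.98 ± 0.393 (SE). Pdia3, a disulfide isomerase, had log2 differences of 0.84 in control and 0.80 in ES. Of 9 immediate early and activity-regulated genes, 6 were higher in both and 0 lower. The shares of all 1357 genes were 28.0% higher and 29.4% lower. Among the 6, Junb differed by only 0.013 in control, and Egr1 and Jund by only 0.014 and 0.099 in ES. Fosl2, an AP-1 factor, was at 134 and 43.7 CPM and then at 277 and 458 CPM, and Klf6, a zinc finger factor, at 178 and 155 CPM and then at 265 and 276 CPM.

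The pan-neuronal list stood on the other side of the rule, and the axonal cytoskeleton list only in part. All 12 pan-neuronal genes with enough reads differed in opposite directions, with a median of 0.44 in control and -1.56 in ES, and so none is a member. Of all 1357 genes, 578 differed in opposite directions. Stmn2, a tubulin-binding protein of growing axons, was at 616 and 841 CPM at 11 DIV and at 789 CPM in control and 262 CPM in ES at 19 DIV. The ES library of 19 DIV was the low one. Of 14 neurofilament and axonal cytoskeleton genes, 8 differed in opposite directions, among them Map1b, Mapt, Stmn2 and Tubb3, which are also on the pan-neuronal list. Another 5 were lower and 1 higher in both treatments. The higher one was Kif1a, a motor of synaptic vesicle precursors, which was at 174 and 224 CPM at 11 DIV and at 492 and 439 CPM at 19 DIV. Tubb2a and Tubb2b, tubulin beta chains, were lower in both: Tubb2a was at 734 and 724 CPM and then at 454 and 381 CPM, and Tubb2b at 2412 and 2871 CPM and then at 2004 and 1227 CPM.

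**Figure D5:**
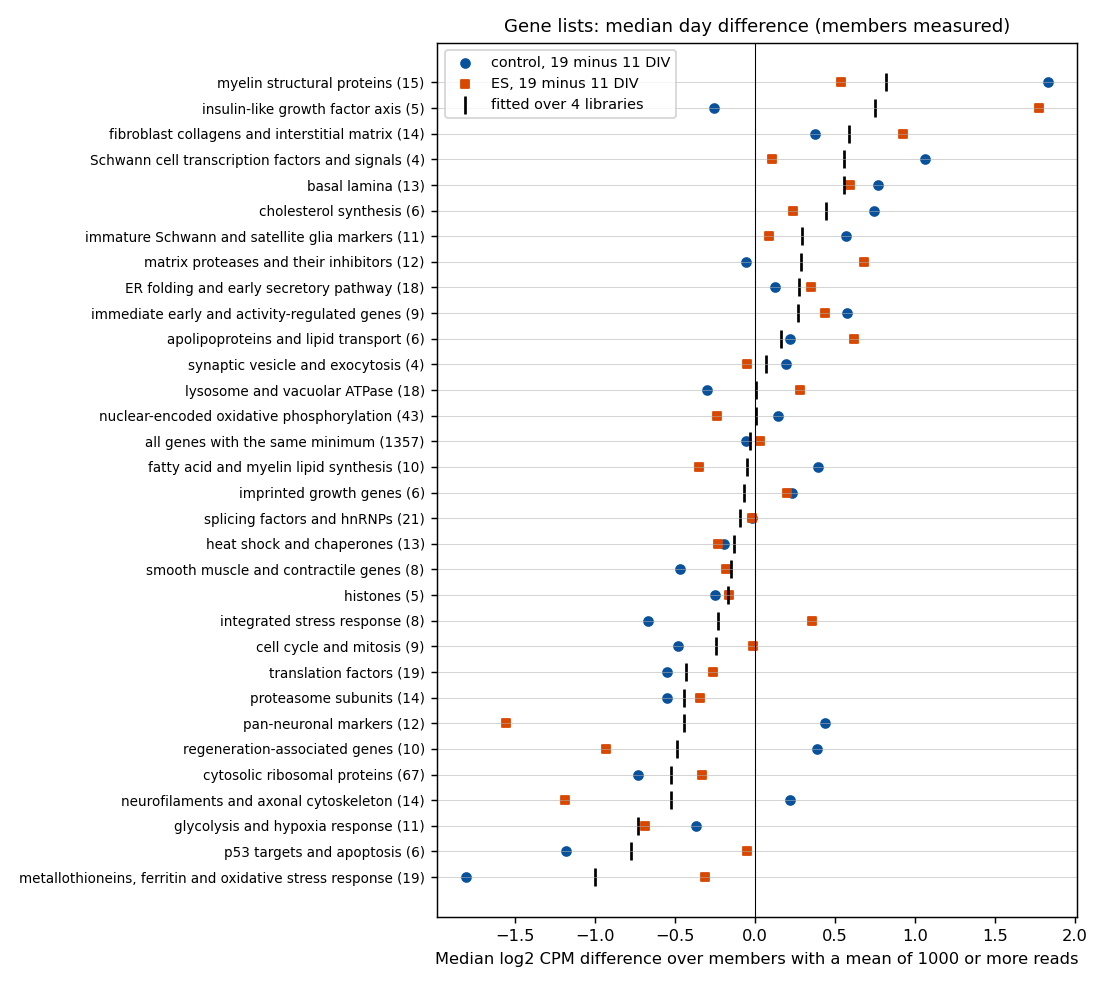
Median log2 CPM difference, 19 minus 11 DIV, over the members of each list with a mean of 1000 or more reads (their number in brackets), in control (circles), in ES (squares) and in the fit over 4 libraries (bars). Myelin structural genes lie furthest to the right in the fit (0.82) and oxidative stress genes furthest to the left (-1.001), and the pan-neuronal circle and square lie on opposite sides of 0.

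Among the genes to be named in any case, H19, an imprinted noncoding RNA, was at 572 and 674 CPM at 11 DIV and at 205 and 574 CPM at 19 DIV, low in the control library of 19 DIV alone. Igf2, the imprinted growth factor beside it, had a mean of 451 reads and is no member: it had 1037 and 526 reads at 11 DIV and 5 and 237 at 19 DIV. Col3a1, of type III collagen, was at 1072 and 989 CPM and then at 1196 and 1843 CPM.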

How the data were processed

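For each library the authors deposited whole-number raw counts by gene symbol; 35 symbols stood on more than 1 row and were kept apart. Libraries were made with a QuantSeq kit, which reads 3′ tags, per the labels' protocols. Bowtie2, bedtools and mm10 are named, per the submitters' processing notes; versions, duplicate handling and strand use are not stated in the sources used here. Reads of genes that overlap, also on opposite strands, may therefore be mixed.

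Counts were scaled by TMM and fitted in edgeR 4.0.16 (R 4.3.3; quasi-likelihood, filterByExpr, treatment and day as additive factors, Benjamini-Hochberg over all 10050 genes, threshold 0.05). Differences within a treatment are log2 CPM with a prior count of 2; the SE is the fitted difference over the root of F. The alternatives were DESeq2 1.42.0, voom in limma 3.58.1, changed scalings, filters, read minimums and folds, and each library left out. The fits with a library left out held day alone, without the treatment block. The fit was also run on simulated data, and no result above rests on that run. Coordinates are from GENCODE M21 (GRCm38, the assembly of mm10); segments were aligned with BLAST 2.17.0. Python 3.11.15 with pandas 2.3.3 and matplotlib 3.10.9 did the rest.

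Named were genes past the threshold, at most 15 each way (there were 0), the 12 highest and 12 lowest by the smaller within-treatment difference, the 2 most abundant genes of each described list with at most 2 more of largest difference, and 19 genes set by name. Some genes that the rule names are left out of the text and figures. The members, the lists and the choice of which lists to describe were made with earlier results of these data known. The labels name separate pools of explants and nothing more, and no group has a replicate library. With treatment and day as additive factors, a gene's residual is the gap between its control and ES day differences. The p-values therefore set the day difference against that gap, with dispersion shared over genes, and not against replicates. The gap can hold technical spread, spread between pools and a true difference between treatments. Which of these it holds was not tested.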

Additional observations from a re-analysis of the deposited data

Results flagged for a closer look

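In the following genes and lists the day difference pointed one way in control and the other way in ES, so they lie outside the shared day difference; the difference between treatments was not tested, since each value rests on 1 library per group. Values are log2 differences, 19 minus 11 DIV, in control and then in ES.

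Neuronal genes were higher in control and lower in ES: Prph 0.44 and -1.81, Tubb3 0.42 and -1.66, Stmn2 0.36 and -1.68, Basp1 0.32 and -1.23, and Map1b 0.08 and -0.84. The list medians were 0.44 and -1.56 for pan-neuronal markers and 0.22 and -1.19 for neurofilaments and the axonal cytoskeleton. The same order was found for Mbp (0.88 and -0.16), Apoe (1.13 and -0.54), Acat2 (0.87 and -0.47), Atp5g3 (0.54 and -0.50) and Cox8a (0.36 and -0.34), and for the median of the oxidative phosphorylation genes (0.14 and -0.24). The opposite order was found for Ier3 (-1.14 and 0.44), Psmd7 (-1.77 and 0.29) and Hspa5 (-0.22 and 0.86).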

How the results depend on the processing

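The count of genes past edgeR's threshold was 0 under the other scalings, without a filter, without the treatment block, with voom and with each library left out. It was 10 in a fit of the 1357 genes alone, with an infinite prior degrees of freedom against 5.74 in the fit over all genes, and 881 with DESeq2 (145 of the 1357); the cause was not tested. With a minimum of 500 reads, 1547 genes had the same direction (790 higher, 757 lower; 142 and 81 at least 2-fold), and with 2000 reads 355 (160 and 195; 12 and 9). With 1000 or more reads asked of the median library in place of the mean, 742 of 1286 genes had the same direction (350 higher, 392 lower). Of these, 27 were at least 2-fold higher and 17 at least 2-fold lower in both. At least 1.5-fold in both, with the mean of 1000 reads, were 107 higher and 84 lower, and at least 3-fold 6 and 5. By total reads only, 412 genes were higher and 356 lower in both. No scaling moved the median of the 1357 genes by more than 0.063 log2 units. The same-direction count has no value with a library left out, since a treatment then lacks a day.

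Medians were 0.69 for basal lamina and -0.40 for glycolysis with 500 reads, -1.02 for glycolysis with 2000 reads, -0.35 for immediate early genes with 2000 reads and -0.023 for oxidative phosphorylation with 500. With 2000 reads the immediate early value is that of Ier3 alone, and the glycolysis value rests on Aldoa, Pkm and Ldha only. From the libraries of 1 treatment alone, medians ranged from 0.54 to 1.83 for myelin, 0.59 to 0.77 for basal lamina, -0.69 to -0.37 for glycolysis, -1.56 to 0.44 for pan-neuronal markers, -1.19 to 0.22 for neurofilaments and -0.24 to 0.14 for oxidative phosphorylation, an alternative chosen after seeing the data. Cox8a was at -0.022 without the block and at -0.023 with voom. The fits with 1 library left out also had no treatment block, so their day difference is mixed with treatment. Of 86 named genes, 11 changed sign when 1 library was left out, and their fitted log2 differences with a library left out ranged from -0.093 to 1.02 for Hmgcs1, -0.35 to 0.77 for Acat2, -0.27 to 0.90 for Apoe, -0.98 to 0.29 for Ier3, -1.531 to 0.086 for Psmd7, -2.117 to 0.38 for Psma7, -0.93 to 0.17 for Map1b, -0.32 to 0.33 for Atp5g3, -0.31 to 0.33 for Cox8a, -1.47 to 0.19 for Tubb3 and -1.48 to 0.12 for Stmn2. The sign changed without the control library of 11 DIV in 8 of them, without that of 19 DIV in 4 and without ES at 19 DIV in 4. Within each treatment, Hmgcs1 (0.84 in control and 0.07 in ES) and Psma7 (-0.42 and -1.16) kept their sign. The rest of the 11 differed in opposite directions in control and ES. No paired analysis was possible because each group has 1 library and the labels carry no replicate number.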

Other observations

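Lists not described above were mixed. For all 1357 genes the shares were 28.0% higher and 29.4% lower in both treatments. Of 6 p53 target and apoptosis genes, 3 were lower and 1 higher in both treatments, with medians of -1.18 in control and -0.05 in ES. Of 13 heat shock and chaperone genes, 6 were lower and 4 higher in both. Of 18 lysosomal and vacuolar ATPase genes, 5 were higher and 1 lower, and 12 differed in opposite directions. Of 12 matrix proteases and inhibitors, 4 were higher and 2 lower. Of 21 splicing factors, 4 were higher and 5 lower, near the shares of all 1357 genes. The insulin-like growth factor axis had 5 genes with enough reads and medians of -0.26 in control and 1.78 in ES, and 3 of the 5 differed in opposite directions.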
